A study of Mus musculus with 6 samples.

Results

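The mouse cytochrome P450 genes were described in sorted skin cells of newborn mice, from libraries labelled control or as a knockout of both catalytic subunits of Polycomb repressive complex 1. Members were chosen by name: every row of the count files whose symbol is Cyp, a family number, a subfamily letter and a gene number, leaving out predicted pseudogenes. The rule took 99 of 24453 rows. One of them, Cyp4x1os, is a noncoding RNA on the strand opposite Cyp4x1, and it had 0 counts in every library. Cyp51 and Cyp2ab1, whose symbols do not match the pattern, are not among the 99. The name rule reads no count, but the family was singled out with the falls of Cyp2g1 and Cyp2f2 in this same comparison known, so those 2 genes are described here without a p of their own, and the counts over the family are a description that supports nothing about the family as a whole.

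There were 6 libraries of bulk RNA sequencing, 3 labelled control and 3 labelled Ring1a/b 2KO (Ring1a-/- and Ring1b-/-), all from back skin of mice at postnatal day 0. Ring1a and Ring1b are the products of Ring1 and Rnf2, the ubiquitin ligases of the complex, which represses genes in chromatin. The labels call the cells hair follicle cells, whereas the sorting protocol attached to them describes only a gate for interfollicular epidermis. The genotype of the control mice beyond the word control, the Cre line or other means of deletion, and whether each library came from 1 animal are not stated in the labels, so p-values measure the spread between these libraries, which may in part be technical.

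Cytochrome P450 enzymes are heme proteins that insert 1 atom of oxygen into a substrate, drawing electrons from P450 reductase in the endoplasmic reticulum or from ferredoxin in mitochondria. Some families make or clear signals such as retinoic acid, vitamin D, steroids, oxysterols and oxidised fatty acids, and others break down foreign compounds, above all in the liver. In skin they are known for retinoic acid clearance, vitamin D activation, the acylceramides of the permeability barrier and the oxidation of arachidonic acid.

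Promoter sequence is shown for the genes below because the complex named in the knockout label is known to bind mainly at promoters rich in CpG. RefSeq promoters (build GRCm38.p6, 250 bases before to 50 bases after the start) were found for 76 of the 99 rows, which gave 86 promoters. These had a median of 2.5 CpG, against 7 over all 32841 promoters of that length, and 81.4% of them had fewer than 6 CpG, against 43.6% of all. Of the 4 genes that were lower in 2KO, Cyp2f2 (chr7:27119705-27120004, plus strand) had 0 CpG, Cyp4a32 (chr4:115600688-115600987, plus strand) had 3, and Cyp4b1 (chr4:115647672-115647971, minus strand) had 5. The fourth is Cyp2g1, for which no promoter was found. Cyp2s1 (chr7:25816476-25816775, minus strand), which lies in the same gene cluster as Cyp2f2 and did not pass the test, had 17. The other tested genes of that cluster that did not pass had few CpG as well, Cyp2b19 1, Cyp2b10 4 and Cyp2t4 4. The sequences run 5′ to 3′ on the gene's strand, with each CpG in capitals.
Cyp2f2: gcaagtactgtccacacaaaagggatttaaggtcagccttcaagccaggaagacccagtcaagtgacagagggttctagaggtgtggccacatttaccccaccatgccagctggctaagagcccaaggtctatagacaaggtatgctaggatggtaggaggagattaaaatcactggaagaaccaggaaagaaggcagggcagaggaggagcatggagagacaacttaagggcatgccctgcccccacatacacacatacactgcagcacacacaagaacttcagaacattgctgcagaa
Cyp4a32: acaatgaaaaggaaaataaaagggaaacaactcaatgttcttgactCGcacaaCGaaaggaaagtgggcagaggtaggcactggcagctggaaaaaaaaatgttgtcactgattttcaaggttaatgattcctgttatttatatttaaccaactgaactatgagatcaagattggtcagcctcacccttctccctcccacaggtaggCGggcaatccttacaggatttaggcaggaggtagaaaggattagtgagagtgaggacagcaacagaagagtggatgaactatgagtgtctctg
Cyp4b1: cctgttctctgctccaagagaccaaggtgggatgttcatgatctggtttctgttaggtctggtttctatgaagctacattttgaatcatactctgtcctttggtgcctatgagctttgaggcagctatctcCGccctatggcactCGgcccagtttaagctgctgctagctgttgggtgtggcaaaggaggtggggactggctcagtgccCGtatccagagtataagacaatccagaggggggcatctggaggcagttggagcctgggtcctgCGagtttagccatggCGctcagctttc
Cyp2s1: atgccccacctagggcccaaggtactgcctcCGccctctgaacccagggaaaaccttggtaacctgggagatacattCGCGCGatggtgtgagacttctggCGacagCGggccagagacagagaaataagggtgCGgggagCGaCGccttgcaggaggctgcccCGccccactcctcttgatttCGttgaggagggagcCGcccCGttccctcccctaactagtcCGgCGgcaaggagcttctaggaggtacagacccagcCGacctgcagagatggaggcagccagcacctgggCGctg
These promoters were searched on both strands for a TATA box (TATAAA), the core recognised by the aryl hydrocarbon receptor (GCGTG) and an AP-1 site (TGANTCA), which are held by 13.6%, 32.4% and 7.81% of all promoters. Cyp4a32 held a TATAAA on the opposite strand, starting 113 bases before the gene's start. Cyp4b1 held a match to TGANTCA, reading TGAATCA, starting 169 bases before its start, and whether AP-1 binds it was not tested. Cyp2f2 and Cyp2s1 held none of the 3 motifs in this window.

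Library totals ranged from 24.8 to 30.8 megacounts, and levels are given as CPM (counts per megacount, scaled by edgeR's TMM factors). Along the first principal component of all tested genes (54.0% of the variance) the libraries labelled control lay from -80.9 to -57.7 and those labelled 2KO from 67.8 to 76.4. The targeted genes did not follow the labels. Among the libraries labelled control 1, 2 and 3, Ring1 stood at 19.5, 22.4 and 3.37 CPM. Among those labelled 2KO 1, 2 and 3 it stood at 1.84, 7.34 and 14.1 CPM, so control 3 and 2KO 3 went against their labels. The levels of Rnf2, in the same order, were 67.6, 79.4 and 47.1 CPM and 75.3, 66.4 and 89.1 CPM. Neither gene passed the test (adjusted p = 0.537 and 0.615, edgeR). Reads of the exons outside a deletion still count toward a gene, and the position of the reads is not in the count files, so neither value settles the genotype. Xist, the RNA of the inactive X chromosome, ranged from 4550 to 5360 CPM over control 3, 2KO 1 and 2KO 2 and from 2.48 to 10.4 CPM over the other 3 libraries. Library names below are the labels', and results on the 4 lower genes are also given without control 3 and 2KO 3. Ly6a, which encodes the Sca1 protein of the interfollicular gate, was at 1.92 to 7.27 CPM.

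Of the 99 P450 rows, 39 had 0 counts in all 6 libraries, 60 had at least 1 count, and 31 passed edgeR's filter on low counts and were tested. By edgeR's quasi-likelihood test with p-values adjusted over all 14972 tested genes, 4 P450 genes were lower in 2KO and 0 were higher. Among all tested genes 9.02% were past the threshold of an adjusted p under 0.05, 6.61% higher and 2.42% lower. The 4 were Cyp2g1, Cyp2f2, Cyp4b1 and Cyp4a32. At an unadjusted p under 0.05, 8 P450 genes were lower and 2 were higher, Cyp26b1 and Cyp7b1. DESeq2 called those 2 higher and 6 genes lower. limma-voom called 0 higher and 5 lower. The fold changes were below 0 for 21 of the 31 tested P450 genes, with a median log2 fold change of -0.65, and the median over all tested genes was -0.02, with 51.4% below 0. The 2KO libraries all lay below the control libraries for 11 of the 31 and all above them for 5, and the ranges overlapped for 15. Groups did not overlap for 28.4% of all tested genes.

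**Figure D1:**
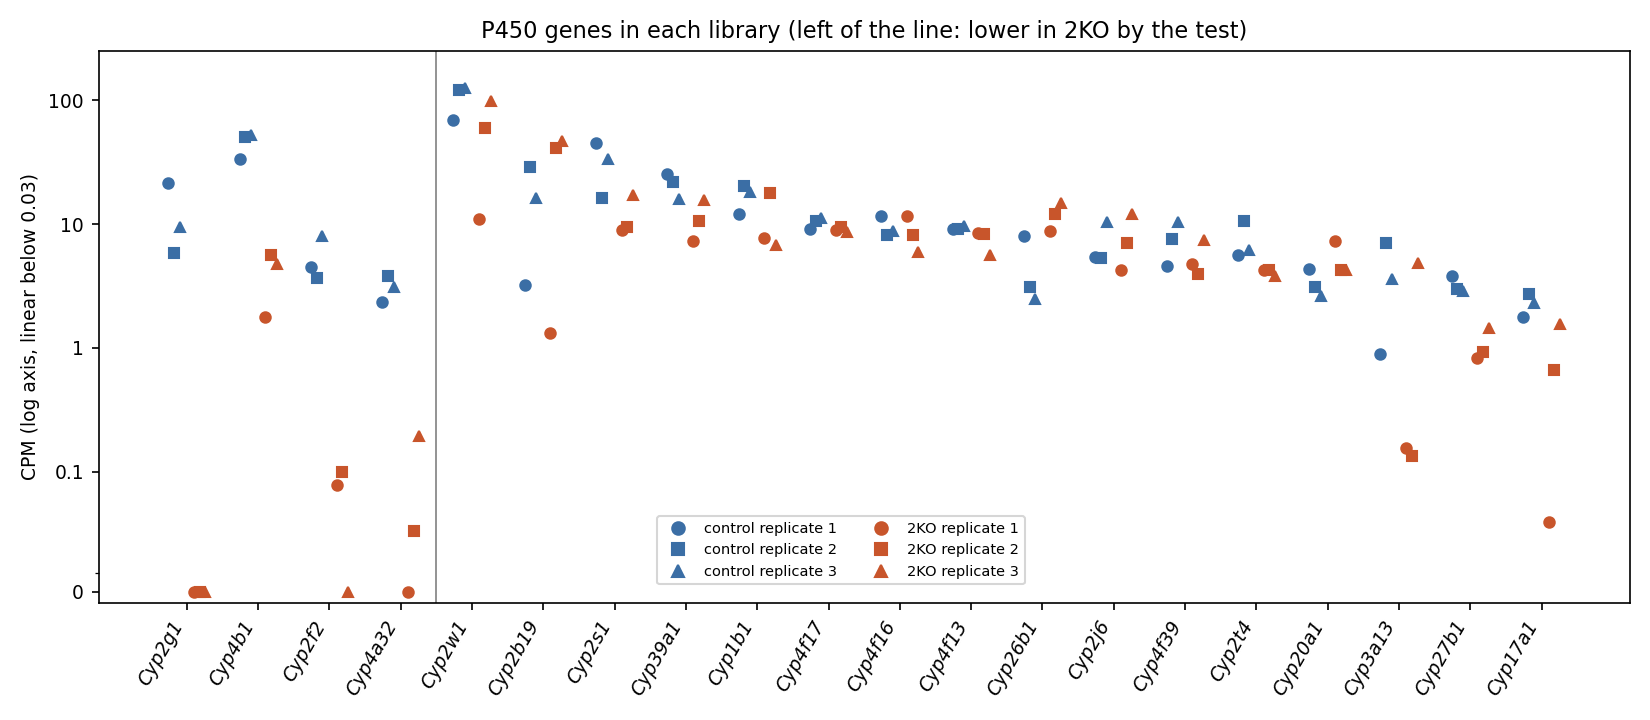
Level of each P450 gene named by rule in each of the 6 libraries, in CPM on a log axis that is linear below 0.03. Points are single libraries, blue for control and orange for 2KO, with a shape for each replicate number. Left of the line the 2KO points of Cyp2g1, Cyp4b1, Cyp2f2 and Cyp4a32 lie below every control point, and right of it no gene passed the test.

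The genes that fell in 2KO come from families 2 and 4. Family 2, without the vitamin D enzyme Cyp2r1 and the fatty acid hydroxylase Cyp2u1, had 46 members, of which 25 had counts, 10 were tested and 2 were lower, Cyp2g1 and Cyp2f2. Both encode microsomal enzymes of the airway and nose, Cyp2g1 a steroid hydroxylase known from olfactory mucosa and Cyp2f2 the lung enzyme that activates naphthalene. Cyp2g1 (ENSMUSG00000049685.8, mm10 chromosome 7, 26808892 to 26821205, plus strand) was at 21.6, 5.87 and 9.38 CPM in control 1, 2 and 3, from 608, 182 and 287 counts. It had 0 counts in each 2KO library. The groups do not overlap, and against the limit of 3 counts over the 2KO group Cyp2g1 was at least 324-fold lower in 2KO. Such limits and all counting errors here cover counting alone, since reads amplified from the same molecule are not independent.

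Cyp2f2 (ENSMUSG00000052974.8, mm10 chromosome 7, 27119909 to 27133660, plus strand) was at 4.503, 3.65 and 8.04 CPM in control and at 0.0784, 0.1001 and 0 CPM in 2KO. The 2KO values rest on 2, 3 and 0 counts. Its mean was 5.40 ± 2.33 CPM (SD, n = 3) in control and 0.0595 ± 0.0526 CPM (SD, n = 3) in 2KO. The ratio of the counts pooled over each group and scaled by library size was 87.7. No 100-base stretch of the transcripts of Cyp2g1 or Cyp2f2 is found in another P450 transcript, so reads of this length that match in full do not move between them and a relative.

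Cyp4b1 had the highest control level of the genes that fell. It encodes a microsomal enzyme that hydroxylates short fatty acids and activates some plant toxins. Cyp4b1 (ENSMUSG00000028713.17, minus strand of mm10 chromosome 4, 115624725 to 115647723) was at 33.5, 50.1 and 52.1 CPM in control and at 1.76, 5.67 and 4.78 CPM in 2KO. All 3 control libraries were far above all 3 of 2KO. The counts pooled over each group and scaled by library size differed 10.95-fold. The log2 fold change of Cyp4b1 was -3.47 (SE 0.43, adjusted p = 0.0016 by edgeR's quasi-likelihood test).

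Next to it lies Cyp4a32, of the subfamily of fatty acid omega-hydroxylases that PPAR-alpha induces in liver. Cyp4a32 (ENSMUSG00000063929.6, mm10 chromosome 4, 115600969 to 115621602, plus strand) was at 2.34, 3.81 and 3.10 CPM in control and at 0, 0.0334 and 0.196 CPM in 2KO. The 2KO values rest on 0, 1 and 5 counts, and the ratio of the counts pooled over each group and scaled by library size was 41.9. Its log2 fold change was -5.28 (SE 1.04, adjusted p = 0.0131, edgeR). The value of Cyp4a32 is uncertain for 2 reasons. Its 3′ end faces that of Cyp4b1 at a distance of 3.12 kb and the strand setting of the counting is not given, so reads past the end of Cyp4b1 could count for it. Its counts were 6.98%, 7.60% and 5.96% of those of Cyp4b1 in control 1, 2 and 3, and 0%, 0.588% and 4.10% in 2KO 1, 2 and 3. Also, 18.2% of its 100-base stretches are shared with Cyp4a10 or Cyp4a31, which had 0 counts in control and 11 and 1 in 2KO. The part of either in the result was not tested.

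Cyp4b1 and Cyp4a32 stayed past the threshold in the same direction in each of the 16 alternative analyses. The highest adjusted p over these was 0.0421 for Cyp4b1 (edgeR without control 3 and 2KO 3) and, for Cyp4a32, a value just under the threshold that rounds to 0.05 (edgeR without 2KO 2). Without control 3 and 2KO 3 the count of lower P450 genes was 5, with Cyp2b10 in addition, and without control 1 and 2KO 1 it was 4. The former leaves Xist at 2.48 and 9.26 CPM in control against 5360 and 4950 CPM in 2KO, so genotype and Xist level cannot be told apart there, and all 5 sex-linked genes were called (1 higher, 4 lower). With all 6 libraries and Xist as a covariate the adjusted p of Cyp4b1 was 0.00765 and that of Cyp4a32 0.0308 by edgeR.

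Markers of other cell types moved between the same libraries. Calls in the marker lists, here and below, can be read beside all tested genes, of which 6.61% were higher and 2.42% lower. Of 24 markers of the inner root sheath and hair shaft, the hardened layers of the hair follicle, 16 were tested and 10 were lower in 2KO. Their summed level was 883 to 934 CPM in control and 401 to 712 CPM in 2KO. Krt25 and Krt34 were at 0 in all 2KO libraries, Krt86 had counts only in 2KO, and Krt33b was at 0 in all 6. At an unadjusted p under 0.05 by edgeR, 13 of these markers were lower and 1 was higher. Of 17 sebocyte markers, 14 were tested and Prdm1, Mgst1 and Far2 were lower, and the sum was 438 to 456 CPM in control and 356 to 433 CPM in 2KO. Of 24 dermal fibroblast markers, 22 were tested and 8 were higher, and the sum was 1800 to 2120 CPM in control and 2220 to 2890 CPM in 2KO. The fold changes were below 0 for 6 of the 22, and 1 was lower at an unadjusted p under 0.05 by edgeR. DESeq2, limma-voom and a fit with a replicate block each called 1 fibroblast marker lower. Basal keratinocyte markers summed to 24600 to 35100 CPM in control and 30800 to 35900 CPM in 2KO, with 0 of 12 called by edgeR, 2 at an unadjusted p under 0.05, and 1 lower by DESeq2 and by limma-voom. Without control 3 and 2KO 3 the calls were 6 inner root sheath and hair shaft markers, 1 sebocyte marker and 5 fibroblast markers. The sebocyte count was also 1 without control 1, control 3 or 2KO 3 alone. The part of any of these cell types in the P450 differences was not tested, and in bulk RNA fewer cells of a type and less RNA per cell cannot be told apart.

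**Figure D2:**
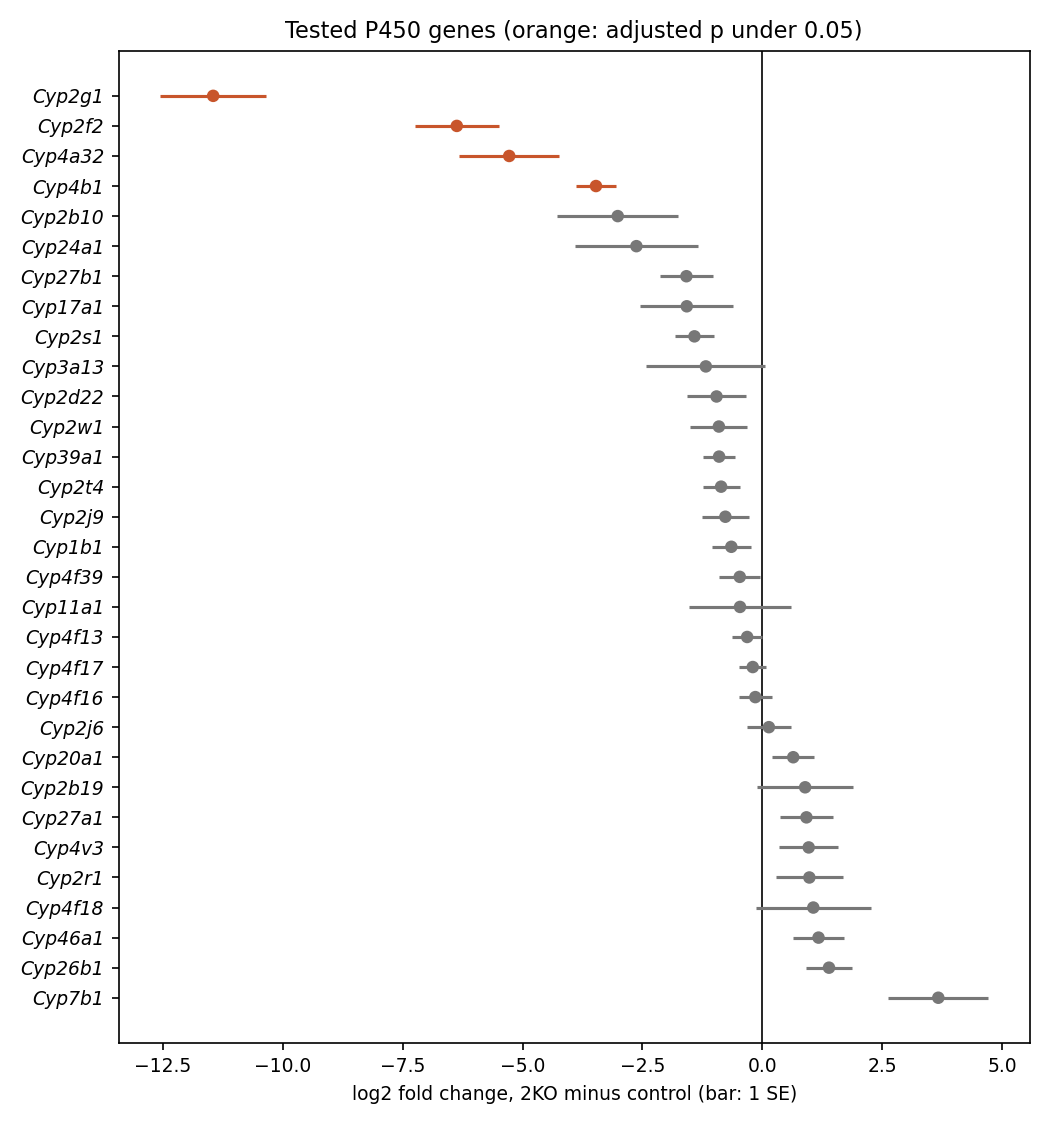
Log2 fold change of each of the 31 tested P450 genes, 2KO minus control, with bars of 1 SE on each side. Orange marks the 4 genes with an adjusted p under 0.05. These lie between -11.45 (Cyp2g1, a fitted value with 0 counts in 2KO) and -3.47 (Cyp4b1), and Cyp7b1 lies highest at 3.67 without passing.

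The 4 genes sit in 2 gene clusters. Taking P450 genes less than 1 megabase apart as a cluster, the chromosome 7 cluster spans 1356 kb (mm10, 25802475 to 27158668) and holds 13 members, of which 6 were tested and 2 were lower. Cyp2g1 starts 36.3 kb after the end of Cyp2b19, and Cyp2f2 starts 299 kb after the end of Cyp2g1 and ends 20.1 kb before Cyp2t4. Their neighbours Cyp2b19 and Cyp2t4, described below, did not pass the test. Cyp2a4, Cyp2a5, Cyp2a12 and Cyp2b23, also in the cluster, had 0 counts throughout. The 5 genes in the interval that are not P450 genes, Vmn1r184, Vmn1r185, Nlrp4a, Nlrp9a and Nlrp9c, were not tested for lack of counts. The chromosome 4 cluster spans 541.4 kb (mm10, 115106323 to 115647723) and holds 11 members, 5 of them at 0 in every library. The tested members there were Cyp4a32 and Cyp4b1, its last 2 genes.

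**Figure D3:**
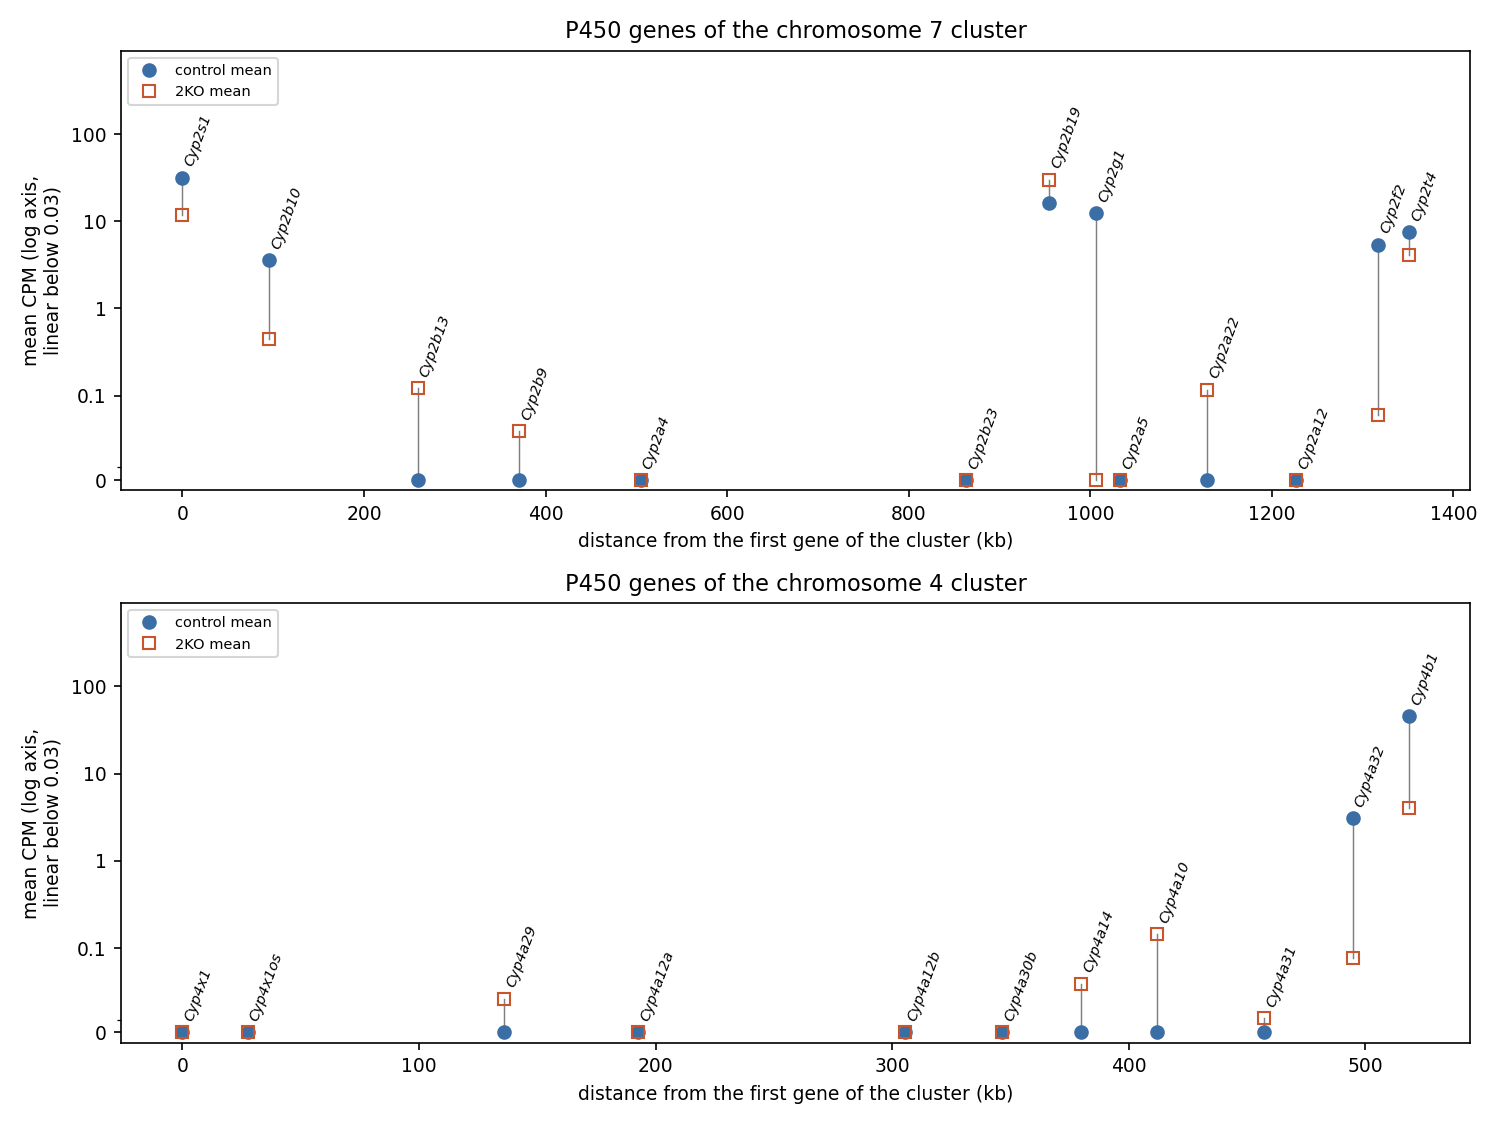
Mean CPM of the P450 genes of the chromosome 7 cluster (top) and the chromosome 4 cluster (bottom) against the distance of the gene from the start of the cluster in kb. Filled blue circles are control means and open orange squares 2KO means of 3 libraries, on a log axis that is linear below 0.03 CPM. In the chromosome 7 cluster the 2KO squares of Cyp2g1 and Cyp2f2 lie far below their control circles while that of Cyp2b19, next to Cyp2g1, lies above its own, and in the chromosome 4 cluster the counts lie almost all in Cyp4b1 and Cyp4a32.

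The remaining members of family 2 included the P450 gene with the highest level in these cells. Cyp2w1, an enzyme otherwise known from fetal gut and tumours, was at 68.9, 121 and 126 CPM in control 1, 2 and 3 and at 10.97, 59.8 and 97.4 CPM in 2KO 1, 2 and 3. The groups overlap, because the highest 2KO library lies above control 1. The log2 fold change of Cyp2w1 was -0.91 (SE 0.59, adjusted p = 0.438, edgeR). Per kb of exon it was the most abundant P450 transcript in both groups, at 69.3 CPM per kb in control and 37.0 in 2KO.

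Cyp2b19, the keratinocyte epoxygenase of arachidonic acid known from the suprabasal epidermis, was at 3.23, 29.0 and 16.1 CPM in control and at 1.33, 41.3 and 47.1 CPM in 2KO. Control 1 and 2KO 1 were the lowest of their groups, and the groups overlap. Its log2 fold change was 0.89 (SE 1.00, adjusted p = 0.690, edgeR). Cyp2w1 was lowest in the same 2 libraries of its groups, and so was the sum of the markers of suprabasal and granular keratinocytes, at 3570, 10400 and 12600 CPM in control and 1600, 4920 and 4410 CPM in 2KO. Of the 23 such markers tested 2 were higher and 2 lower. No marker was higher without control 1, control 2 or 2KO 2, while 4 were lower without control 1 and 3 without 2KO 2. None was called without control 3 and 2KO 3, and 2 were higher and 5 lower without control 1 and 2KO 1. A fit with a replicate block gave 3 higher and 6 lower. Control 1 and 2KO 1 also lay apart from the others on the second principal component, at 44.8 and 68.5 against -32.9 to -23.8. Being lowest in these libraries was not particular to Cyp2b19 and Cyp2w1. Cyp4b1 (33.5 and 1.76 CPM), Cyp4a32 (2.34 and 0 CPM), Cyp17a1 and Cyp2r1 were also lowest of their groups in control 1 and 2KO 1. In replicates 2 and 3 the marker sum and Cyp2w1 were lower in 2KO than in control, while Cyp2b19 was higher. The part of suprabasal and granular keratinocytes in the values of Cyp2b19 and Cyp2w1 was not tested. Without control 1 and 2KO 1 neither Cyp2b19 nor Cyp2w1 passed.

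Cyp3a13, the only tested member of family 3, the main drug-metabolising family of liver and gut, was at 0.886, 7.07 and 3.595 CPM in control and at 0.157, 0.133 and 4.82 CPM in 2KO. The library labelled 2KO 3 was as high as control, and the other 2KO libraries had 4 counts each. The log2 fold change of Cyp3a13 was -1.18 (SE 1.24, adjusted p = 0.667, edgeR), and without 2KO 3 it was -4.67 with an adjusted p of 0.0459. In 15 of the 16 alternative analyses Cyp3a13 did not pass. Of the 9 members of family 3, 6 had 0 counts in every library.

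**Figure D4:**
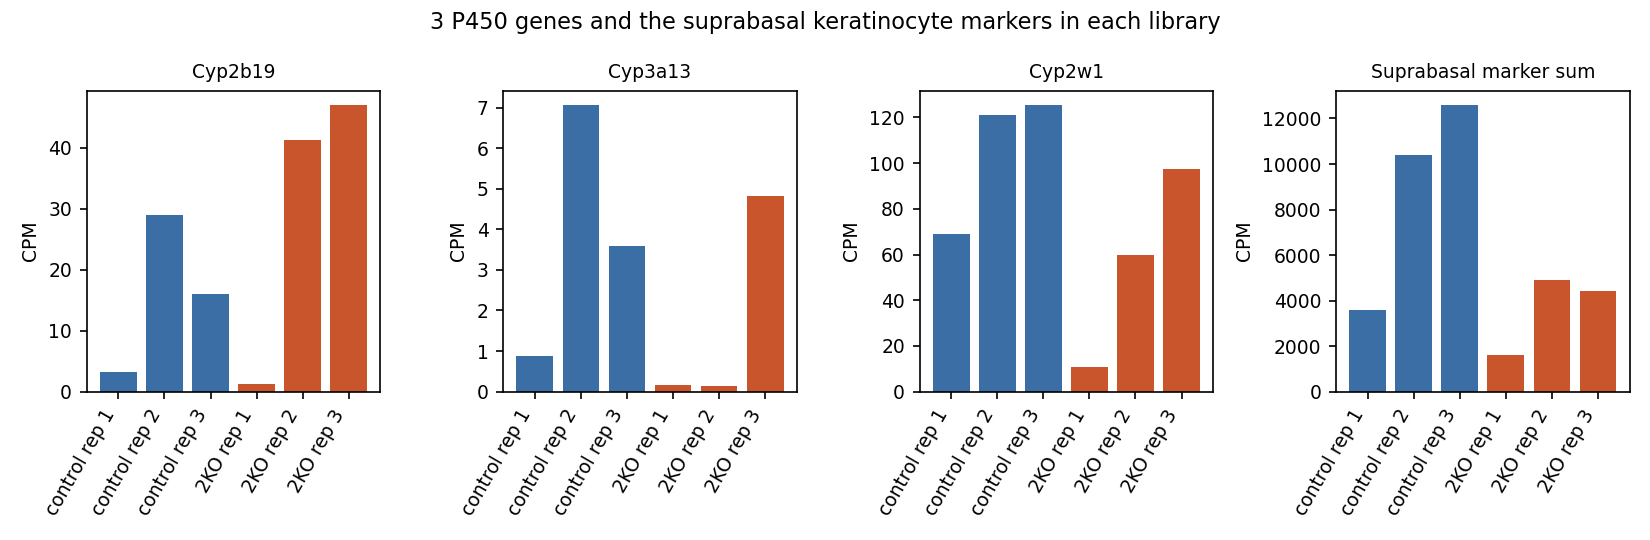
Level in CPM of Cyp2b19, Cyp3a13 and Cyp2w1, and the summed CPM of the suprabasal and granular keratinocyte markers, in each library, with blue bars for control and orange bars for 2KO. Control 1 and 2KO 1 are the lowest bars of their groups in every panel except Cyp3a13, where 2KO 1 and 2KO 2 are both near 0.

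Cyp2s1, a skin enzyme inducible by dioxin and retinoids, was at 45.1, 16.1 and 33.5 CPM in control and at 9.01, 9.41 and 17.1 CPM in 2KO. The highest 2KO library lay just above control 2. Its log2 fold change was -1.42 (SE 0.41, adjusted p = 0.0617, edgeR). Without control 2 the adjusted p of Cyp2s1 was 0.0209 by edgeR, and DESeq2 gave 0.00658. Cyp2s1 passed in 4 of the 16 alternative analyses and did not pass in 12.

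Cyp2b10, a detoxifying enzyme induced through the receptor CAR, was picked for description after its values were seen. It was at 3.26, 3.61 and 3.89 CPM in control and at 0.0392, 0 and 1.29 CPM in 2KO. The groups did not overlap, but 2KO 3 held 33 of the 34 counts of the group. The log2 fold change of Cyp2b10 was -3.01 (SE 1.26, adjusted p = 0.199, edgeR), and without 2KO 3 it was -7.30 with an adjusted p of 0.00925. Cyp2b10 passed in 3 of the 16 alternative analyses and did not pass in 13.

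Cyp2t4 was at 5.64, 10.5 and 6.21 CPM in control and at 4.27, 4.24 and 3.80 CPM in 2KO, with an adjusted p of 0.234 by edgeR. Cyp2j6, an epoxygenase of arachidonic acid, was at 5.43, 5.29 and 10.5 CPM in control and at 4.23, 7.07 and 12.0 CPM in 2KO. The groups of Cyp2j6 overlap almost fully, and its adjusted p was 0.915 by edgeR. The Cyp2c, Cyp2a and Cyp2e subfamilies, abundant in liver, had next to no counts. Of 15 Cyp2c members 10 were at 0 in all libraries and none was tested, 3 of 4 Cyp2a members were at 0, and so was Cyp2e1. Of 9 Cyp2d members 5 were at 0 and 1, Cyp2d22, was tested. Cyp2d22, singled out after its values were seen, was at 4.43, 2.55 and 1.80 CPM in control and at 1.80, 0.801 and 1.92 CPM in 2KO, and the groups overlap (adjusted p = 0.434, edgeR). Hepatocyte markers summed to 0.490 to 0.993 CPM in control and 0.567 to 0.862 CPM in 2KO, with 5 of 13 at 0 in every library.

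The fatty acid hydroxylases, the Cyp4 subfamilies with Cyp2u1, had 22 members, of which 14 had counts and 8 were tested. The 2 lower ones were Cyp4b1 and Cyp4a32. The Cyp4f genes, which inactivate leukotrienes and oxidise long fatty acids, included no gene past the threshold. Cyp4f17 was at 9.15, 10.5 and 11.2 CPM in control and at 8.90, 9.41 and 8.59 CPM in 2KO, with a log2 fold change of -0.20 (SE 0.28). Cyp4f16 was at 11.6, 8.13 and 8.79 CPM in control and at 11.6, 8.17 and 5.998 CPM in 2KO, with a log2 fold change of -0.15 (SE 0.34). Of its 100-base stretches 5.95% are shared with Cyp4f17 or Cyp4f37. Cyp4f13 was at 9.11, 9.04 and 9.71 CPM in control and at 8.47, 8.27 and 5.61 CPM in 2KO, with a log2 fold change of -0.32 (SE 0.31). Their adjusted p-values by edgeR were 0.756, 0.865 and 0.639. All but Cyp4f13 overlap between the groups.

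Cyp4f39 is the hydroxylase needed for the acylceramides of the skin barrier. It was at 4.61, 7.55 and 10.3 CPM in control and at 4.78, 3.97 and 7.45 CPM in 2KO, and the groups overlap (log2 fold change -0.47, SE 0.42, adjusted p = 0.5998, edgeR). The other tested members of families 2, 4 and 11 not described singly, Cyp2j9, Cyp4f18, Cyp4v3 and Cyp11a1, had log2 fold changes of -0.77, 1.06, 0.97 and -0.47, overlapped between the groups and did not pass. Cyp2u1, chosen after its values were seen, was under the filter, with 1 count in control 2 and 13 and 34 counts in 2KO 2 and 2KO 3.

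Among the enzymes of small signals, Cyp26b1, which clears retinoic acid, was the only tested member of its 3-gene family. It was at 7.98, 3.10 and 2.48 CPM in control and at 8.74, 12.1 and 14.7 CPM in 2KO. All 2KO libraries were above all controls, and control 1 lay close to the lowest of them. The log2 fold change of Cyp26b1 was 1.39 (SE 0.48, adjusted p = 0.115, edgeR). Without control 1 it was 2.10 with an adjusted p of 0.0211, and DESeq2 gave an adjusted p of 0.0371 on all 6 libraries. Cyp26b1 passed in 3 of the 16 alternative analyses and did not pass in 13. Cyp26a1 had 0 counts.

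All 3 vitamin D enzymes were tested and none passed. Cyp27b1, which makes the active hormone, was at 3.79, 2.97 and 2.88 CPM in control and at 0.823, 0.934 and 1.45 CPM in 2KO. The groups do not overlap, and the log2 fold change was -1.58 (SE 0.56, adjusted p = 0.123 by edgeR and 0.0432 by DESeq2). In 15 of the 16 alternative analyses Cyp27b1 did not pass. The other two were chosen after their values were seen. Cyp24a1, which degrades the hormone, was at 1.13, 1.13 and 0.425 CPM in control and at 0.0392, 0 and 0.392 CPM in 2KO (adjusted p = 0.276, edgeR). Cyp2r1, which makes the circulating precursor, was at 0.567, 0.839 and 0.817 CPM in control and at 1.06, 1.30 and 2.04 CPM in 2KO (adjusted p = 0.481, edgeR).

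Of 6 cholesterol and bile acid enzymes 4 were tested. Cyp39a1, which hydroxylates an oxysterol, was the most abundant of them per kb of exon. It was at 25.1, 21.8 and 15.9 CPM in control and at 7.25, 10.7 and 15.6 CPM in 2KO. The groups just miss each other, with 2KO 3 next to control 3, and the log2 fold change was -0.90 (SE 0.33, adjusted p = 0.144, edgeR).

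The other 3 tested sterol enzymes, chosen after their values were seen, had every 2KO library above every control library. None of the 3 passed edgeR's test, and groups did not overlap, in either direction, for 28.4% of all tested genes. Cyp7b1, another oxysterol hydroxylase, was at 0.142, 0.0323 and 0.131 CPM in control and at 2.31, 1.30 and 0.392 CPM in 2KO. Its log2 fold change was 3.67 (SE 1.04, adjusted p = 0.0603 by edgeR and 0.0122 by DESeq2). In 14 of the 15 alternative analyses that tested it, Cyp7b1 did not pass. Cyp46a1, the cholesterol hydroxylase known from brain, was at 2.06, 1.13 and 1.34 CPM in control and at 3.10, 4.27 and 2.82 CPM in 2KO (adjusted p = 0.243, edgeR). Cyp27a1, a mitochondrial sterol hydroxylase, was at 2.34, 1.16 and 1.18 CPM in control and at 2.90, 2.77 and 3.18 CPM in 2KO (adjusted p = 0.395, edgeR).

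Of 6 steroid hormone enzymes 2 were tested. Cyp17a1, which makes androgen precursors, was at 1.77, 2.71 and 2.32 CPM in control and at 0.0392, 0.667 and 1.57 CPM in 2KO. The 2KO libraries all lay below control and differed widely among themselves, and the adjusted p was 0.404 by edgeR. Cyp19a1, the aromatase, singled out after its values were seen, had 59 counts in 2KO 3 and 0 in each of the other 5 libraries.

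Of the targets of the aryl hydrocarbon receptor 1 of 3 was tested. Cyp1b1, which oxidises oestrogens and aromatic hydrocarbons, was at 12.1, 20.4 and 18.2 CPM in control and at 7.64, 17.9 and 6.74 CPM in 2KO. The groups overlap through 2KO 2, and its log2 fold change was -0.65 (SE 0.41, adjusted p = 0.419, edgeR). Cyp1a1, chosen after its values were seen, had 9, 4 and 4 counts in control and 0 in each 2KO library, at least 5.11-fold lower against the limit of 3 counts over the 2KO group. It was under the filter and untested. Cyp20a1, a P450 of no settled substrate, was at 4.36, 3.13 and 2.65 CPM in control and at 7.29, 4.27 and 4.27 CPM in 2KO (adjusted p = 0.462, edgeR).

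Added over all 99 rows, P450 reads came to 303.8, 357.5 and 369.6 CPM in control and 114.5, 221.3 and 286.6 CPM in 2KO. Every 2KO library was below every control library, and the means were 343.6 ± 35.0 and 207.5 ± 86.9 CPM (SD, n = 3 each). Cyp2w1 carried 36.1% of the difference of 136.2 CPM and Cyp4b1 30.2%, while the higher mean of Cyp2b19 in 2KO took 10.1% off it (-10.1%). The 4 lower genes made up 17.7% to 20.4% of P450 reads in control and 1.61% to 2.62% in 2KO. Without these 4 genes the P450 sum was 242, 294 and 297 CPM in control and 113, 216 and 282 CPM in 2KO, and the groups then overlap. The 4 were picked as lower in these same libraries, so their smaller share and the smaller difference without them follow from that choice.

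**Figure D5:**
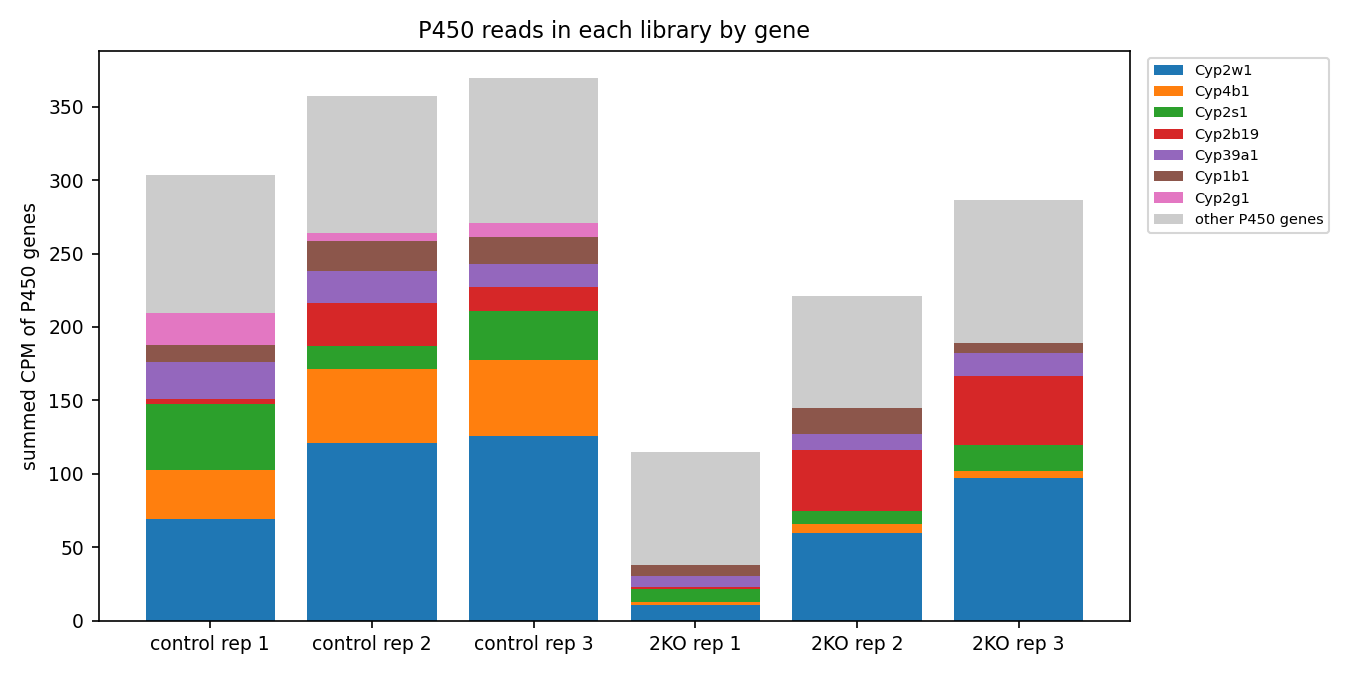
Summed CPM of the 99 P450 rows in each library, stacked by gene, with all genes other than the 7 named in grey. The control bars stand at 303.8 to 369.6 CPM and the 2KO bars at 114.5 to 286.6 CPM, and Cyp2w1 is the largest named piece of every bar.

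Per kb of exon, the order of levels in control was Cyp2w1 at 69.3 CPM per kb, Cyp4b1 at 20.05, Cyp39a1 at 6.85, Cyp2s1 at 6.40, Cyp2g1 at 5.72, Cyp2t4 at 4.52 and Cyp2b19 at 3.87. In 2KO Cyp4b1, at 1.81 CPM per kb, stood at rank 13, and Cyp2b19, at 7.17, at rank 2. The ranks from Cyp39a1 down are close, and no test of the order was made.

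The library labelled 2KO 3 held more P450 rows than the others, 48 against 34 to 37. Of the 20 P450 rows with counts in 1 library alone, 13 (65.0%) were in 2KO 3, all but Cyp19a1 with 11 counts or fewer. The same library held 921 of the 1741 rows of the whole table that were found in 1 library alone (52.9%).

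Other genes of P450 biology were counted in lists by function, whose medians can be read beside the -0.02 of all tested genes. Their calls can be read beside the 6.61% of all tested genes that were higher and the 2.42% that were lower. No list was tested as a set. Of 13 electron donors and heme supply genes 12 were tested, with a median log2 fold change of 0.16. None was called in either direction by edgeR, DESeq2 or limma-voom, and 1 had an unadjusted p under 0.05 by edgeR. That gene was Cyb5r3, the reductase of cytochrome b5, at 292 ± 33.5 CPM in control and 419 ± 56.7 CPM in 2KO (SD, n = 3 each, adjusted p = 0.0992, edgeR). Cyb5b, a cytochrome b5 of mitochondria, was at 91.6 ± 10.2 and 117 ± 15.6 CPM (adjusted p = 0.308, edgeR).

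Of 22 receptors and partners that regulate P450 genes 18 were tested, 2 were higher and 2 lower, and the median log2 fold change was -0.22. Ahr, the aryl hydrocarbon receptor, was at 252, 289 and 209 CPM in control and at 103, 117 and 129 CPM in 2KO, and fell by 1.10 on the log2 scale (SE 0.18, adjusted p = 0.006, edgeR). Vdr, the vitamin D receptor, was at 219, 204 and 202 CPM in control and at 43.8, 79.8 and 98.9 CPM in 2KO, and fell by 1.49 (SE 0.27, adjusted p = 0.00934, edgeR). Both kept the call in every alternative. Arnt2, a partner of Ahr-type factors, rose from 1.65 ± 1.37 to 26.2 ± 10.2 CPM (SD, n = 3 each). Ppard, a lipid-sensing receptor, rose from 54.3 ± 16.8 to 142 ± 39.3 CPM. Without control 3 and 2KO 3 Arnt2 (adjusted p = 0.0821, edgeR) and Ppard (0.0921) were lost, and Ppard also without 2KO 2 (0.0599) or 2KO 3 (0.0586).

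Of 19 retinoid genes 14 were tested, 4 were higher and 1 lower, and the median log2 fold change was 0.90. Dhrs3, a retinaldehyde reductase, fell from 29.0 ± 7.93 to 7.11 ± 2.25 CPM (SD, n = 3 each). Aldh1a3, which makes retinoic acid, rose from 1.71 ± 0.708 to 10.3 ± 3.04 CPM. Crabp2, a carrier of retinoic acid, rose from 3.71 ± 1.68 to 15.6 ± 5.53 CPM. Aldh1a2, another retinoic acid synthase, also rose. Without control 3 and 2KO 3 Dhrs3 (adjusted p = 0.0627, edgeR) and Aldh1a3 (0.0568) were lost, and without control 1 Crabp2 was (0.0525).

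Of 58 genes of conjugation and transport 42 were tested, 2 were higher and 5 lower, and the median log2 fold change was -0.40. Aox4, an aldehyde oxidase of skin, fell from 56.4 ± 18.0 to 4.22 ± 2.81 CPM (SD, n = 3 each). Fmo1 fell from 16.9 ± 6.60 to 4.07 ± 2.14 CPM and Fmo5 from 13.2 ± 5.81 to 4.55 ± 1.33 CPM, both flavin monooxygenases. Abcb1b, a drug efflux pump, rose from 3.86 ± 0.525 to 39.5 ± 5.15 CPM. The other calls were Mgst1, Mgst2 and Ugt8a. Xist as covariate left 2 of the 5 lower calls. Without control 3 and 2KO 3 1 higher and 1 lower call of this list were left, and Aox4 had an adjusted p of 0.0648 by edgeR. Fmo1 was also lost without control 3 (0.0940) or 2KO 2 (0.0819), and Fmo5 without control 1 (0.188), control 2 (0.0823) or any 1 of the 2KO libraries (0.0770 to 0.153). Mgst1 was lost on leaving out any single library except control 2 (0.0527 to 0.128), and Ugt8a without control 1 (0.0501).

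Of 24 eicosanoid genes 21 were tested, 1 was higher and 2 lower, and the median log2 fold change was 0.17. Ptges, a prostaglandin E synthase, rose from 22.5 ± 0.783 to 56.0 ± 12.6 CPM (SD, n = 3 each). Pla2g4a, the phospholipase that frees arachidonic acid, fell from 69.2 ± 11.1 to 28.2 ± 5.42 CPM, and Alox12e, an epidermal lipoxygenase, from 17.6 ± 1.53 to 6.85 ± 2.17 CPM. Without control 3 and 2KO 3 Pla2g4a had an adjusted p of 0.0811 by edgeR, and the call of Alox12e was lost on leaving out any single library except 2KO 1 (adjusted p 0.0565 to 0.0910).

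All 18 acylceramide genes were tested, 1 was higher and 1 lower, and the median log2 fold change was 0.15. Ugcg, a glucosylceramide synthase, rose from 64.2 ± 4.46 to 127 ± 13.4 CPM (SD, n = 3 each), and was lost without control 3 and 2KO 3 (adjusted p = 0.0834, edgeR). Fa2h, a fatty acid hydroxylase outside the P450 family, was at 4.93, 7.49 and 5.75 CPM in control and at 0 in each 2KO library. Of 39 steroid and sterol synthesis genes 29 were tested, with a median log2 fold change of -0.21, and 1 was called, Hsd3b6, a steroid dehydrogenase, at 6.74, 2.68 and 3.66 CPM in control and 0, 0 and 0.0392 CPM in 2KO.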

How the data were processed

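The deposited files give whole-number counts of reads per gene symbol, 1 file per library, not normalized by the authors; the submitters' processing notes name HTSeq 0.6.1, TopHat2 2.0.13, DESeq2 1.6.3 and Cufflinks 2.2.1 with mm10, without saying what each did, which annotation was used or whether strand counted. RNA (10 ng of it, per the labels) was amplified without molecular identifiers and read as single reads of 100 nt, which adds spread between libraries.

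From these counts, genes were kept by filterByExpr, scaled by TMM and tested with glmQLFit and glmQLFTest of edgeR 4.0.16 (R 4.3.3), 3 against 3 libraries with no covariate, with Benjamini-Hochberg adjustment over all 14972 tested genes. The SE is the size of the log2 fold change over the square root of the F statistic. Library totals were 24.8 to 30.8 megacounts, and 3 counts over a whole group correspond to 0.0334 CPM in control and 0.0370 CPM in 2KO. A test on simulated counts followed the fit, using its gene set and the observed means. The same dispersion was set for every gene, so the simulation does not show how the fit behaves on these libraries. Coordinates and exon lengths are from GENCODE vM21, matched by symbol for 98 of 99 P450 rows.

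Members given in every library were those past the threshold, those with a mean of at least 5 CPM in either group, Cyp2g1 and Cyp2f2. The highest member of a role group without such a member was added, and so were Ring1 and Rnf2. Of the lists by function, up to 4 called genes of highest mean were given or, where none was called, the 2 genes of highest mean. Most of these list genes are given as group means with SD. The inner root sheath, sebocyte, fibroblast and keratinocyte markers are given mainly as sums and counts of calls. Other members are said to be chosen after their values were seen. The members and lists were chosen with earlier results of these data known. The main edgeR fit and limma-voom gave 0 calls among markers of red blood cells, muscle, immune cells, melanocytes, nerve, endothelium and hepatocytes. The same held for sex-linked genes. In alternatives edgeR called 1 melanocyte gene with Xist as covariate, 1 sex-linked gene without control 3, and 5 without control 3 and 2KO 3. Of the endothelial genes, 1 had an unadjusted p under 0.05 and was called by DESeq2. Alternatives used DESeq2 1.42.0, limma 3.58.1 (voom), other filters and factors, a replicate block, Xist as covariate, and libraries left out; leaving out control 1 with 2KO 1 was added after the data were seen. One called gene of the retinoid list is not reported here.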

Additional observations from a re-analysis of the deposited data

How the results depend on the processing

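Cyp4b1 and Cyp4a32 stayed past the threshold in all 16 alternatives; Cyp2g1 and Cyp2f2, whose falls were known when the family was chosen, are in the counts but support nothing. The count of lower P450 genes ran from 4 to 6 when 1 library was left out, and that of higher ones from 0 to 1, the 1 being Cyp26b1 without control 1. DESeq2 called 2 P450 genes higher, and leaving out control 1 and 2KO 1 1, again Cyp26b1. Over all genes, leaving out 1 library gave 615 to 854 higher and 184 to 347 lower, against 989 and 362 in the full fit; leaving out control 3 and 2KO 3 gave 309 and 72. DESeq2 gave 733 lower and Xist as covariate 231. Leaving out libraries leaves fewer samples, and Xist as covariate leaves fewer residual degrees of freedom. The part of either in these counts was not tested, nor was the cause for DESeq2. With a replicate block 6 P450 genes were lower, with Cyp2s1 and Cyp2w1 (adjusted p = 0.0307 and 0.0498, edgeR) added, and 0 were higher; deviations of same-numbered libraries correlated at 0.29, 0.089 and -0.0756, not all above 0.1, so the numbers were not taken to pair the libraries; that of control 1 with 2KO 1 was the highest of the 9 control and 2KO pairs. Directions turned for Cyp2j6 (log2 fold change -0.294 to 0.532 on leaving out 1 library), Cyp4f16 (-0.413 to 0.0732, and 0.000767 without control 3 and 2KO 3) and Cyp11a1 (-1.14 to 0.0454, and 0.242), none of which was called. Depth limits what can be said of the 29 P450 rows with counts that were under the filter.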
